A study of Vitis vinifera with 45 samples.

Results

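Skins of Crimson Seedless berries 45 days after flowering (DAF, written DAF45 as in the labels) were compared between vines grafted onto the rootstock SO4 (CS/SO4) and graft-free, own-rooted vines (CS). The 6 libraries whose labels read SO4 or Crimson Seedless at that stage were taken, 3 biological replicates of each, out of 45 libraries in all. The remaining libraries came from the same scion grafted onto 101-14 or 110R or onto itself (CS/CS), each sampled at DAF45, DAF75 and DAF105, and from CS/SO4 and CS at DAF75 and DAF105. All vines shared the scion cultivar, stood at 1 site and were managed alike, and grafting was the only difference set by the study. The study's methods name a randomized block design for picking the berries. How blocks and vines relate to the 3 replicates is not given in the sources used here, so a p-value measures the spread between these 3 skin samples, which may be smaller than that between vines. The labels give the rootstock, and a note to the study's read statistics says which of the labelled scions was graft-free and which was self-grafted. Transcripts of scion skin cannot show which root the vine stood on, so the assignment rests on these labels.

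A rootstock supplies the scion with water, minerals and hormones through the graft union, and commercial rootstocks such as SO4, a hybrid of American Vitis species, are known to alter the vigour of the vine and the timing of berry ripening. Growing grape berries are green and firm until veraison, the turn to ripening, when sugar import, softening and colouring set in. Red colour comes from anthocyanins, which are made from phenylalanine through 4-coumarate-CoA ligase (4CL), chalcone synthase (CHS), chalcone isomerase (CHI), flavanone 3-hydroxylase (F3H) and leucoanthocyanidin dioxygenase (LDOX), and softening involves cell wall proteins such as expansins. The comparison asks how far the skin transcriptome on SO4 had already departed from that of the ungrafted vine at the earliest stage sampled.

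The 6 libraries held 17594637 to 20568828 counts. The 10 most abundant transcripts took 5.92% to 6.36% of the counts in CS and 5.40% to 5.86% in CS/SO4, and the number of transcripts with a count was 20667 to 20861 in CS and 21136 to 21229 in CS/SO4. Both measures separated the groups, and their part in the results was not tested. On log2 counts scaled to library size, replicates correlated at 0.965 to 0.982 in CS and 0.975 to 0.982 in CS/SO4, and libraries of different groups at 0.940 to 0.973. The 9 transcripts under the gene ontology (GO) term chlorophyll binding, which mark green tissue, summed to 2021, 1508 and 1851 TPM, a level scaled for transcript length and sequencing depth, in CS replicates 1 to 3 and to 2246, 934 and 904 TPM in CS/SO4, and none of them was at 0 in any library. CS/SO4 replicate 1 thus lay above every CS library, and CS/SO4 replicates 2 and 3 lay below them. No list of skin or seed markers came with the files, so the tissue label could be checked only to this extent.

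Of 17609 transcripts with enough counts for a test, 924 (5.25%) differed between CS/SO4 and CS by more than 2-fold at an adjusted p of 0.05 or less in edgeR's quasi-likelihood test, and are called differentially expressed genes (DEGs) here. Of these, 543 (3.08%) were higher and 381 (2.16%) lower in CS/SO4, while the median log2 fold change of all transcripts tested was -0.01. The median size of the change was 1.60 on the log2 scale among the higher and 1.33 among the lower DEGs, and 184 higher against 68 lower DEGs changed more than 4-fold. Together the higher DEGs took 9883, 10665 and 12441 TPM in CS and 27442, 32975 and 32492 TPM in CS/SO4. The lower DEGs took 35239, 40775 and 32117 TPM in CS and 16562, 13096 and 12751 TPM in CS/SO4. These sums follow from how the DEGs were called and show the share of the skin's transcripts they took. In 543 of the 543 higher and 380 of the 381 lower DEGs the 3 libraries of one group did not overlap those of the other, against 21.7% and 16.9% of all transcripts tested. This separation, too, follows largely from how the DEGs were called and is no further evidence for them. In 16 higher and 5 lower DEGs every library of the other group held 3 counts or fewer.

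**Figure D1:**
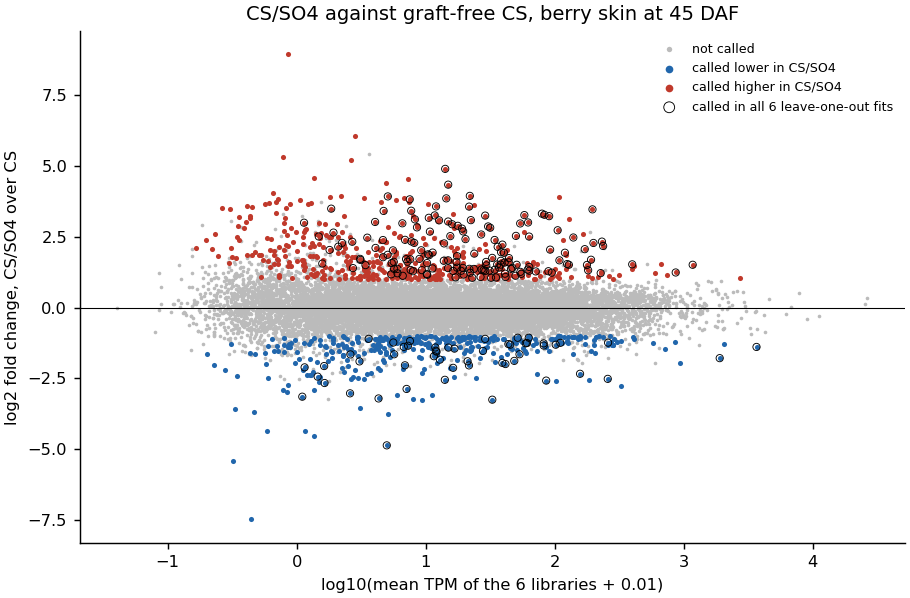
Log2 fold change of CS/SO4 over CS against the mean level of the 6 libraries, as log10(TPM + 0.01), for the 17609 transcripts tested at DAF45. Red and blue points are the 543 higher and 381 lower DEGs, and black rings mark the 207 that were called whichever library was left out.

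The number of DEGs depended on single libraries. It fell from 924 to 269 without CS replicate 1, to 289 without CS/SO4 replicate 3 and to 357 without CS/SO4 replicate 2. It was 682 without CS replicate 2, and it rose to 1222 without CS replicate 3 and to 1151 without CS/SO4 replicate 1. The lower DEGs moved most, from 81 without CS replicate 1 to 586 without CS replicate 3. In all 6 of these fits 155 of the higher DEGs (0.88% of the transcripts tested) and 52 of the lower ones (0.295%) were called, whereas 21 and 12 were called in none. A DEG described below as stable is one of these 207.

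**Figure D2:**
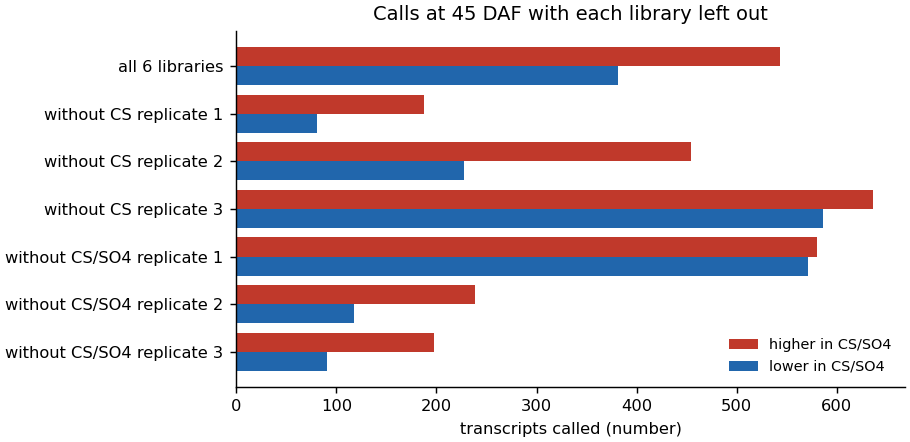
Number of DEGs higher (red) and lower (blue) in CS/SO4 than in CS at DAF45 with all 6 libraries and with each library left out in turn. The counts lie between 81 and 636 per direction when 1 library is missing.

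The longest run of DEGs among neighbouring identifiers, taken as at least 4 DEGs of 1 direction with numbers close to each other, was on VIT_12s0057. Between g00060 and g00190 the table lists 13 transcripts, of which 11 could be tested and 9 were higher in CS/SO4. The files, the study and the reference tables give these transcripts no name or role. VIT_12s0057g00190 held 30.2, 25.6 and 38.5 TPM in CS and 328, 379.6 and 374 TPM in CS/SO4. Every CS/SO4 library lay far above every CS library (log2 fold change 3.46 ± 0.16, adjusted p = 0.000286, where ± beside a fold change is its standard error throughout). VIT_12s0057g00060 held 67.9, 83.7 and 53.2 TPM in CS and 341, 339 and 312 TPM in CS/SO4, again without overlap (log2 fold change 2.28 ± 0.20, adjusted p = 0.00261). The largest fold in the run was that of VIT_12s0057g00090, which held 2.27, 0.456 and 1.38 TPM in CS and 31.2, 31.5 and 22.8 TPM in CS/SO4. All CS libraries were low and all CS/SO4 libraries far above them (log2 fold change 4.34 ± 0.39, adjusted p = 0.00272). The other members called had log2 fold changes of 2.02 (VIT_12s0057g00070), 3.82 (VIT_12s0057g00080), 1.93 (VIT_12s0057g00100), 2.38 (VIT_12s0057g00120), 3.04 (VIT_12s0057g00150) and 1.71 (VIT_12s0057g00180). All 9 were stable except VIT_12s0057g00180, which was not called without CS replicate 1 (adjusted p = 0.0515).

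Not every neighbour took part. Within the run VIT_12s0057g00110 held 14.3, 10.9 and 8.26 TPM in CS and 16.2, 15.1 and 12.2 TPM in CS/SO4, with a log2 fold change of 0.39 ± 0.30 (adjusted p = 0.396). Just before it VIT_12s0057g00010 and VIT_12s0057g00020 had log2 fold changes of -0.32 ± 0.14 (adjusted p = 0.146) and -0.32 ± 0.11 (adjusted p = 0.0845). Counts of VIT_12s0057g00070, g00080, g00090, g00100, g00120, g00150 and g00180 were not whole numbers in 4 to 6 of the 6 libraries. Reads may therefore have been split between transcripts that resemble each other, and how the rise divides among these 7 members is uncertain. VIT_12s0057g00060 and VIT_12s0057g00190 had whole counts in all 6 libraries.

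Across the 5 graft types at DAF45, VIT_12s0057g00190 averaged 31.4 ± 6.56 TPM (SD, n = 3) in CS, 72.3 ± 8.54 TPM in CS/110R, 76.8 ± 51.3 TPM in CS/101-14, 81.1 ± 35.8 TPM in CS/CS and 360.5 ± 28.0 TPM in CS/SO4. CS/SO4 was the highest, and the 3 types in between did not separate beyond their spread. Against the mean of the other 4 types its log2 fold change was 2.59 ± 0.25 (adjusted p = 0.000129), a contrast that contains the CS libraries. In CS replicate 1 at DAF45, 30.2 TPM of the transcript stood for 37 counts, so its lower levels at DAF75 and DAF105 rest on few counts. At DAF75 the order was turned, with 17.7 ± 1.52 TPM in CS and 3.79 ± 0.844 TPM in CS/SO4 (log2 fold change -2.13 ± 0.35, adjusted p = 0.00149). At DAF105 the transcript was again higher in CS/SO4, at 17.4 ± 5.30 TPM against 2.25 ± 2.76 TPM (log2 fold change 2.85 ± 0.72, adjusted p = 0.0353). Unlike it, VIT_12s0057g00080 and VIT_12s0057g00090 were higher in CS/SO4 at all 3 stages, with log2 fold changes at DAF75 of 2.03 ± 0.58 (adjusted p = 0.0184) and 2.43 ± 0.47 (adjusted p = 0.00348) and at DAF105 of 5.18 ± 0.32 (adjusted p = 0.000168) and 5.33 ± 0.42 (adjusted p = 0.000366).

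**Figure D3:**
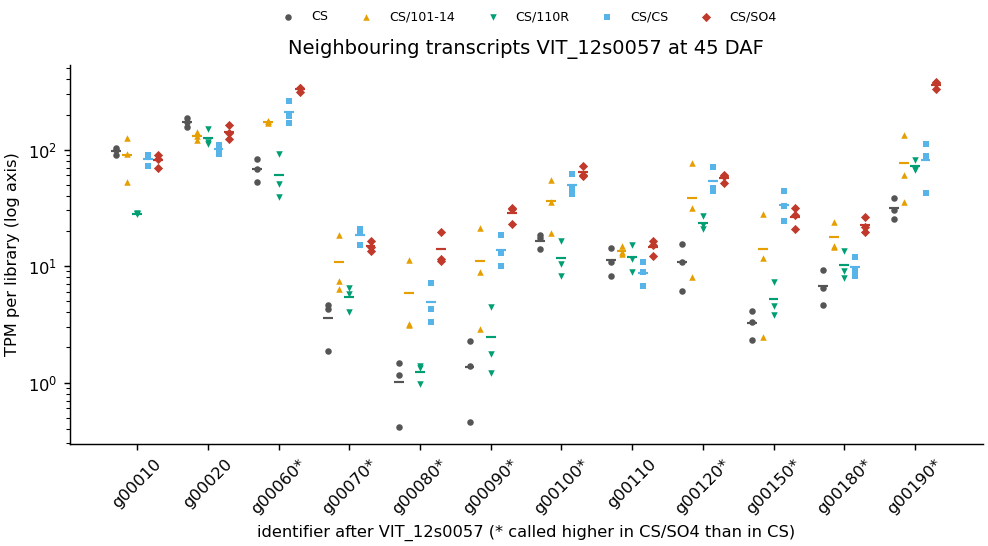
TPM per library (log axis) at DAF45 for 12 transcripts of VIT_12s0057, with 3 points per graft type and a line at their mean. CS/SO4 (red diamonds) lies above CS (grey circles) in the 9 transcripts marked with an asterisk, and overlaps it in g00010, g00020 and g00110.

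Outside this run, and among transcripts that reached 10 TPM in the group with more of them, the largest stable rise was in VIT_01s0146g00260. It held 0.243, 0.654 and 1.86 TPM in CS and 29.9, 41.0 and 11.2 TPM in CS/SO4. All CS libraries were below all CS/SO4 libraries, which differed widely among themselves (log2 fold change 4.89 ± 0.69, adjusted p = 0.00856). In the other grafts at DAF45 it averaged 0.612 ± 0.234 TPM (CS/101-14), 0.513 ± 0.405 TPM (CS/110R) and 0.0207 ± 0.0359 TPM (CS/CS), so each was as low as CS. In CS it rose from 4.34 ± 2.89 TPM at DAF75 to 126 ± 41.5 TPM at DAF105 (log2 fold change 5.26 ± 0.45, adjusted p = 2.61e-05), and the level of CS/SO4 at DAF45 lay between these. VIT_09s0002g03140 held 0.876, 2.91 and 4.11 TPM in CS and 52.8, 44.4 and 26.6 TPM in CS/SO4 (log2 fold change 3.94 ± 0.49, adjusted p = 0.00612). It was higher still in CS/CS, at 900.1 ± 116 TPM (log2 fold change of CS/SO4 over CS/CS -4.30 ± 0.28, adjusted p = 0.00019), so the rise over CS was not confined to SO4. VIT_00s0203g00020 held 2.08, 1.87 and 1.61 TPM in CS and 24.9, 33.0 and 22.9 TPM in CS/SO4 (log2 fold change 3.85 ± 0.29, adjusted p = 0.00164), and VIT_08s0058g01000 held 1.70, 1.41 and 2.37 TPM in CS and 22.3, 19.2 and 25.1 TPM in CS/SO4 (log2 fold change 3.57 ± 0.19, adjusted p = 0.000334). For both, each CS/SO4 library was several-fold above each CS library.

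A pair of close identifiers, VIT_04s0044g01110 and VIT_04s0044g01130, also rose. VIT_04s0044g01110 held 12.4, 7.31 and 12.6 TPM in CS and 101, 111 and 104.835 TPM in CS/SO4 (log2 fold change 3.26 ± 0.18, adjusted p = 0.000502). VIT_04s0044g01130 held 3.21, 3.22 and 3.49 TPM in CS and 40.1, 42.5 and 37.6 TPM in CS/SO4, with little spread within either group (log2 fold change 3.56 ± 0.11, adjusted p = 5.96e-05). Their counts were fractional in all 6 libraries, so reads may have been shared between them, and the comparison of CS/SO4 with CS/CS was not called in either (log2 fold changes 0.08 ± 0.33, adjusted p = 0.867, and 0.22 ± 0.31, adjusted p = 0.6). VIT_08s0007g06040 held 8.13, 15.2 and 22.5 TPM in CS and 127, 166 and 159 TPM in CS/SO4 (log2 fold change 3.27 ± 0.34, adjusted p = 0.00379). This transcript rose in CS from DAF75 to DAF105 (log2 fold change 4.55 ± 0.30, adjusted p = 8.34e-06), and at DAF75 it was higher in CS/SO4 than in CS as well (log2 fold change 4.04 ± 0.26, adjusted p = 2.77e-05).

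Among transcripts that reached 10 TPM in the group with more of them the largest stable fall was in VIT_02s0154g00260, annotated to oligopeptide transport, the carriage of short peptides across membranes. It held 72.7, 51.5 and 53.3 TPM in CS and 9.26, 6.04 and 3.94 TPM in CS/SO4. All 3 CS/SO4 libraries were several-fold below the lowest CS library (log2 fold change -3.25 ± 0.31, adjusted p = 0.00308). The other grafts were also below CS, at 7.64 ± 3.88 TPM in CS/CS, 11.6 ± 1.83 TPM in CS/101-14 and 22.0024 ± 6.51 TPM in CS/110R. In CS itself the transcript averaged 15.7 ± 3.25 TPM at DAF75, and at DAF105 no CS library held more than 3 counts of it. VIT_01s0011g05190 and VIT_01s0011g05170, close identifiers, also fell. The former held 428, 503 and 378 TPM in CS and 91.5, 84.7 and 59.7 TPM in CS/SO4 (log2 fold change -2.51 ± 0.21, adjusted p = 0.00237) and the latter 258, 309.9 and 219.6 TPM in CS and 59.3, 61.3 and 34.1 TPM in CS/SO4 (log2 fold change -2.33 ± 0.28, adjusted p = 0.00573). Neither has an annotation, both had fractional counts in 5 libraries, and both fell further in CS between DAF75 and DAF105, by log2 fold changes of -6.54 ± 0.26 (adjusted p = 1.47e-06) and -6.57 ± 0.40 (adjusted p = 5.69e-06).

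VIT_11s0052g01140 held 11.1, 10.7 and 15.8 TPM in CS and 2.47, 1.96 and 0.611 TPM in CS/SO4 (log2 fold change -2.87 ± 0.42, adjusted p = 0.00954), and VIT_00s0404g00050 held 19.6, 34.3 and 17.7 TPM in CS and 5.35, 3.60 and 3.78 TPM in CS/SO4 (log2 fold change -2.55 ± 0.33, adjusted p = 0.00661). Both were lower in CS/SO4 than in the mean of the other 4 graft types at DAF45, with log2 fold changes of -2.71 ± 0.52 (adjusted p = 0.00455) and -2.60 ± 0.31 (adjusted p = 0.000482), and every CS/SO4 library was below the lowest of the other 12 libraries. VIT_14s0060g00810 held 124, 198 and 116 TPM in CS and 26.6, 28.4 and 21.5 TPM in CS/SO4 (log2 fold change -2.57 ± 0.26, adjusted p = 0.00368). Here CS/110R was lower still than CS/SO4 (log2 fold change of CS/SO4 over CS/110R 2.54 ± 0.19, adjusted p = 0.000626), and all 6 counts were fractional.

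The most abundant DEGs differed by smaller folds. VIT_03s0038g01510 held 4957, 5400.2 and 5490.5 TPM in CS and 2084, 1946 and 2089 TPM in CS/SO4. The CS/SO4 libraries were close to each other and well below CS (log2 fold change -1.39 ± 0.09, adjusted p = 0.00118), and the call was stable, although a fit of all 15 libraries of DAF45 gave an adjusted p of 0.0514. It averaged 2219 ± 1793 TPM in CS/CS, 2968 ± 252 TPM in CS/101-14 and 2592 ± 866 TPM in CS/110R, and CS had the highest mean of the 5 types. VIT_18s0001g09460 held 641, 591 and 575 TPM in CS and 1816, 1776 and 1634 TPM in CS/SO4 (log2 fold change 1.51 ± 0.10, adjusted p = 0.00128) and was stable. Its CS/SO4 level exceeded the mean of the other 4 graft types (log2 fold change 1.21 ± 0.18, adjusted p = 0.00125). VIT_08s0058g01210 held 1316, 2384 and 1580.1 TPM in CS and 3878, 3914 and 3239.6 TPM in CS/SO4 (log2 fold change 1.03 ± 0.25, adjusted p = 0.0334), but it was not called without CS replicate 1 (adjusted p = 0.108, log2 fold change 0.85), CS replicate 3 (adjusted p = 0.0641, log2 fold change 0.93), CS/SO4 replicate 1 (adjusted p = 0.0525), CS/SO4 replicate 2 (adjusted p = 0.104, log2 fold change 0.96) or CS/SO4 replicate 3 (adjusted p = 0.0812). VIT_14s0108g00810 held 401, 406 and 581 TPM in CS and 814, 1017 and 1220.4 TPM in CS/SO4 (log2 fold change 1.13 ± 0.19, adjusted p = 0.0132), and was not called without CS replicate 1 (adjusted p = 0.0679), CS/SO4 replicate 2 (adjusted p = 0.054) or CS/SO4 replicate 3 (adjusted p = 0.0552).

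A pair of neighbours, VIT_19s0090g01340 and VIT_19s0090g01350, belonged to the most abundant lower DEGs. VIT_19s0090g01350 held 2792, 2435 and 3586 TPM in CS and 1195, 701 and 681 TPM in CS/SO4 (log2 fold change -1.78 ± 0.23, adjusted p = 0.00638). The call was stable, and all CS/SO4 libraries were below all CS libraries. At DAF75 it was the other way round, with 34769 ± 8459 TPM against 4351 ± 1952 TPM in CS (log2 fold change 3.14 ± 0.37, adjusted p = 0.000308), and at DAF105 averaged 65903 ± 1511 TPM in CS/SO4 and 54779.7 ± 14649 TPM in CS. The levels of both groups thus rose steeply after DAF45, and the order of the groups changed between DAF45 and DAF75. VIT_19s0090g01340 held 1202, 1404 and 1904 TPM in CS and 388, 522 and 224 TPM in CS/SO4 (log2 fold change -1.96 ± 0.34, adjusted p = 0.0144), and was not called without CS replicate 1 (adjusted p = 0.0507). Counts of the pair were fractional in 3 and 4 of the 6 libraries.

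Besides VIT_12s0057, 4 runs of at least 4 DEGs among neighbouring identifiers were higher in CS/SO4 and 4 were lower. The higher ones lay on VIT_03s0063 (6 DEGs, 3 of them stable), VIT_09s0002 (5, none stable), VIT_06s0004 (4, 1 stable) and VIT_06s0061 (4, 1 stable). The lower ones lay on VIT_06s0009 (5, none stable), VIT_07s0031 (4, none stable), VIT_07s0129 (4, none stable) and VIT_19s0090 (4, 2 stable). In the run on VIT_06s0009 all 5 transcripts that could be tested were lower, with log2 fold changes from -4.34 to -1.50. Its most abundant member, VIT_06s0009g02830, held 12.1, 9.82 and 10.8 TPM in CS and 4.93, 1.46 and 1.84 TPM in CS/SO4 (log2 fold change -2.03 ± 0.42, adjusted p = 0.0225), was not called without CS replicate 1 (adjusted p = 0.0888), CS/SO4 replicate 2 (adjusted p = 0.0681) or CS/SO4 replicate 3 (adjusted p = 0.0876), and averaged 52.2 ± 10.5 TPM in CS/CS. Fractional counts in all 6 libraries leave the split among its copies uncertain.

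The study's primer list names 19 genes, and 18 of them could be tested. EXPA11 (VIT_18s0001g01130) was the 1 that rose, and 4CLL5 (VIT_16s0050g00390) and WRKY40 (VIT_09s0018g00240) were the 2 that fell, against 3.08% and 2.16% of all transcripts. The median log2 fold change of the 18 was 0.28. EXPA11, an expansin, which loosens cell walls, held 279.9, 193 and 529.6 TPM in CS and 733, 1103 and 1131 TPM in CS/SO4. All CS/SO4 libraries lay above all CS libraries (log2 fold change 1.55 ± 0.34, adjusted p = 0.0275), and the gene was not called without CS replicate 1 (adjusted p = 0.109), CS/SO4 replicate 2 (adjusted p = 0.0917) or CS/SO4 replicate 3 (adjusted p = 0.0974). In CS/SO4 it averaged 1119 ± 127 TPM at DAF75, whereas CS averaged 352 ± 128 TPM at DAF75 and 838 ± 175 TPM at DAF105. Against the mean of the other 4 graft types EXPA11 was also higher (log2 fold change 1.94 ± 0.23, adjusted p = 0.000482). XTH7 (VIT_00s0386g00050), a xyloglucan endotransglucosylase of the cell wall, held 1031, 1182 and 700.1 TPM in CS and 1570.2, 1749 and 1376 TPM in CS/SO4 and was not called (log2 fold change 0.67 ± 0.23, adjusted p = 0.0893).

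The list names 8 genes for the phenylpropanoid and anthocyanin pathway. Their assignment to these enzymes rests on the study's naming and could not be checked here. The counts below therefore describe the identifiers listed, and may not describe the pathway. Of the 8, 7 could be tested, and edgeR called 0 higher and 1 lower, with a median log2 fold change of 0.63. Both DESeq2 and edgeR at an unadjusted p under 0.05 called 1 higher and 1 lower. 4CLL5, a 4CL-like ligase, held 14.0, 27.8 and 15.8 TPM in CS and 4.23, 5.74 and 5.73 TPM in CS/SO4, and its CS/SO4 libraries lay below all of CS (log2 fold change -1.94 ± 0.31, adjusted p = 0.0119). It was not called without CS/SO4 replicate 3 (adjusted p = 0.0521), and it averaged 2.08 ± 1.92 TPM in CS/CS and 2.17 ± 0.231 TPM in CS/110R. F3H (VIT_18s0001g14310) held 155, 129.988 and 170.2 TPM in CS and 249, 233 and 239 TPM in CS/SO4. Its groups did not overlap, and the adjusted p passed the threshold at a fold below the limit for a call (log2 fold change 0.63 ± 0.09, adjusted p = 0.00975). 4CL1 (VIT_11s0052g01090) held 9.58, 10.6 and 8.92 TPM in CS and 13.6, 18.2 and 17.9 TPM in CS/SO4 (log2 fold change 0.72 ± 0.16, adjusted p = 0.0267), and 4CLL2 (VIT_18s0001g00290) 195, 286 and 190.2 TPM in CS and 139.8, 114 and 112 TPM in CS/SO4 (log2 fold change -0.93 ± 0.21, adjusted p = 0.0284). These were likewise separated but changed less than 2-fold, except that 4CLL2 was called lower without CS replicate 3 (log2 fold change -1.06, adjusted p = 0.0217) and without CS/SO4 replicate 1 (log2 fold change -1.02, adjusted p = 0.0326). The gene listed as LDOX (VIT_18s0001g03430), the name of an enzyme that makes anthocyanidins, held 4.39, 0.849 and 2.16 TPM in CS and 5.01, 6.49 and 8.61 TPM in CS/SO4. It was not called (log2 fold change 1.42 ± 0.50, adjusted p = 0.0934), although its groups did not overlap and DESeq2 gave an adjusted p of 0.025. The gene listed as CHS (VIT_16s0100g00950) held 2.20, 4.03 and 1.80 TPM in CS and 0.661, 9.07 and 2.79 TPM in CS/SO4. That listed as CHI (VIT_05s0094g00350) held 247, 534 and 858 TPM in CS and 314, 1001 and 527 TPM in CS/SO4. Both had overlapping groups and wide errors (log2 fold change 0.64 ± 0.87, adjusted p = 0.634 for CHS and 0.14 ± 0.52, adjusted p = 0.872, for CHI). The fold change of CHS was negative without CS/SO4 replicate 2 (-0.75), and that of CHI without CS replicate 1 (-0.21) or CS/SO4 replicate 2 (-0.40). Counts of CHS were fractional in all 6 libraries, as were those of PUB23 below. PAL1 (VIT_16s0039g01320), for the first enzyme of the pathway, was at 0 in all libraries but CS replicate 2 and was not tested.

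WRKY40, a transcription factor of the stress-responsive WRKY family, held 464, 741 and 391 TPM in CS and 239.9, 302 and 271 TPM in CS/SO4 (log2 fold change -1.03 ± 0.27, adjusted p = 0.0419), and was not called without CS replicate 1 (adjusted p = 0.0962), CS replicate 2 (adjusted p = 0.0347, log2 fold change -0.65), CS/SO4 replicate 1 (adjusted p = 0.0871, log2 fold change -0.93), CS/SO4 replicate 2 (adjusted p = 0.104) or CS/SO4 replicate 3 (adjusted p = 0.13). WRKY46 (VIT_15s0046g01140) held 149, 305 and 146 TPM in CS and 116, 112 and 144 TPM in CS/SO4 and was not called (log2 fold change -0.75 ± 0.33, adjusted p = 0.15). The ubiquitin ligase PUB23 (VIT_08s0105g00190), which marks proteins for degradation, held 265, 335 and 136 TPM in CS and 133, 156 and 130.2 TPM in CS/SO4 and was not called either (log2 fold change -0.87 ± 0.33, adjusted p = 0.106), except as lower without CS replicate 3 (log2 fold change -1.17, adjusted p = 0.00997). UBC28 (VIT_02s0025g01050), a ubiquitin-conjugating enzyme, held 2142, 2266 and 1941 TPM in CS and 1567, 1172 and 1366 TPM in CS/SO4. All 3 CS/SO4 libraries were lower, by less than 2-fold (log2 fold change -0.66 ± 0.13, adjusted p = 0.0216). The ripening-related gene (VIT_06s0004g02560) held 25.9, 25.9 and 144 TPM in CS and 78.3, 402 and 284 TPM in CS/SO4, and CS replicate 3 exceeded CS/SO4 replicate 1 (log2 fold change 1.98 ± 0.82, adjusted p = 0.133). It was called higher without CS replicate 3 (log2 fold change 3.25, adjusted p = 0.0281). The other 4 genes of the list were not called, with log2 fold changes of 0.42 ± 0.20 for ACBP6 (VIT_02s0033g01330, an acyl-CoA-binding protein), 0.71 ± 0.34 for BHLH77 (VIT_17s0000g00430), -0.05 ± 0.22 for EXL1 (VIT_16s0022g01430) and -0.27 ± 0.15 for OMTF3 (VIT_15s0048g02200). BHLH77 was called higher without CS replicate 3 (log2 fold change 1.12, adjusted p = 0.0437), and the fold change of EXL1 was positive without CS replicate 2 (0.18) or CS/SO4 replicate 3 (0.10).

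**Figure D4:**
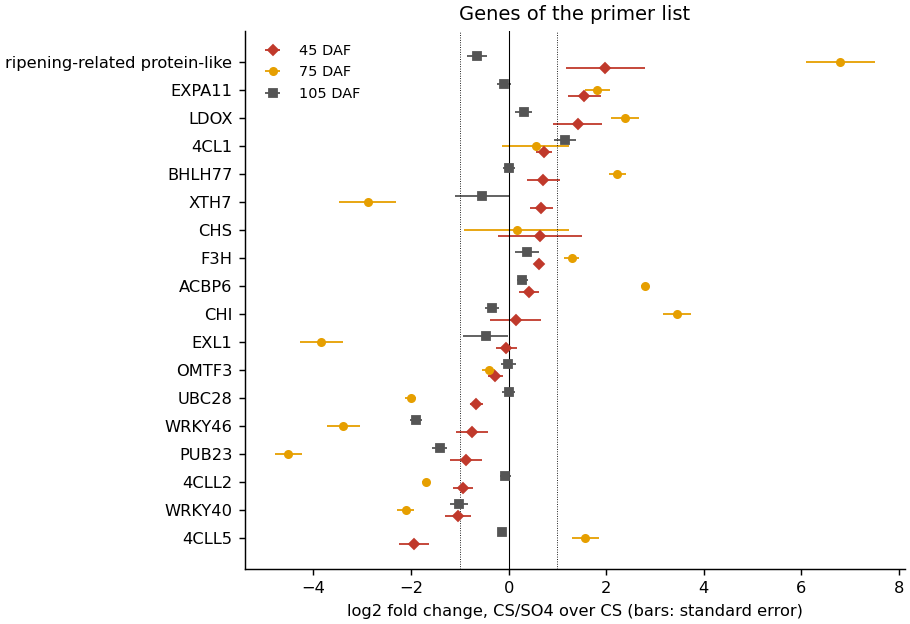
Log2 fold change of CS/SO4 over CS (points) with standard errors (bars) for the genes of the primer list at DAF45, DAF75 and DAF105, where tested, ordered by the value at DAF45. Dotted lines mark a 2-fold change. At DAF45 15 of the 18 genes were not called, and the points of DAF75 spread more widely.

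The study's GO table gives all its members for 47 terms, which hold 144 transcripts. The study drew them from genes that differed from CS in all heterografts at DAF75, CS/SO4 included, and thus from libraries of another stage. Of the 47 terms, 45 stand in the GO table's section for genes lower in the heterografts and 2 in that for genes higher in them. The study's text instead reports more enriched terms for the higher than for the lower genes. It places response to carbohydrate stimulus among the higher terms, whereas the GO table has it under the lower genes. By the sections, nearly all of the lists were chosen for being lower on SO4 at DAF75. Their direction here is thus not independent evidence of a fall. Of the 137 transcripts tested here, 5 were higher (3.65%) and 15 lower (10.9%), against 3.08% and 2.16% of all transcripts, with a median log2 fold change of -0.36 against -0.01 over all transcripts. The 14 transcripts of auxin mediated signaling, the pathway of a hormone that promotes growth and delays ripening in berries, gave 13 tests, 0 higher and 4 lower in edgeR and in DESeq2 (0 and 5 at an unadjusted p under 0.05), with a median of -0.91. The term is 1 of the 45 listed under genes lower at DAF75, and the share called lower over all transcripts was 2.16%. Of these 13, 12 had a negative fold change. They summed to 593, 909 and 472 TPM in CS and 449, 336 and 302 TPM in CS/SO4, so every CS/SO4 library was below every CS library. VIT_07s0141g00270 held 153, 294 and 80.2 TPM in CS and 42.7, 22.5 and 25.7 TPM in CS/SO4 (log2 fold change -2.60 ± 0.51, adjusted p = 0.0202), and was not called without CS replicate 1 (adjusted p = 0.0695), CS/SO4 replicate 2 (adjusted p = 0.0811) or CS/SO4 replicate 3 (adjusted p = 0.0858). VIT_15s0046g00290 held 3.93, 6.03 and 3.76 TPM in CS and 1.76, 0.500 and 0.353 TPM in CS/SO4 (log2 fold change -2.43 ± 0.56, adjusted p = 0.0301), and was not called without CS replicate 1 (adjusted p = 0.09), CS replicate 2 (adjusted p = 0.0624), CS/SO4 replicate 2 (adjusted p = 0.101) or CS/SO4 replicate 3 (adjusted p = 0.0899). The other 2 were VIT_06s0004g03130 with 73.3, 98.9 and 59.1 TPM in CS and 50.7, 28.7 and 23.7 TPM in CS/SO4 (log2 fold change -1.23 ± 0.33, adjusted p = 0.0448) and VIT_09s0002g03410 with 22.1, 14.8 and 20.1 TPM in CS and 10.8, 10.6 and 7.26 TPM in CS/SO4 (log2 fold change -1.03 ± 0.19, adjusted p = 0.0163). The former was not called without CS replicate 1 (adjusted p = 0.117), CS replicate 2 (adjusted p = 0.0956, log2 fold change -0.94), CS/SO4 replicate 2 (adjusted p = 0.145) or CS/SO4 replicate 3 (adjusted p = 0.137), and the latter was not called without CS replicate 1 (adjusted p = 0.0723, log2 fold change -0.91), CS/SO4 replicate 2 (adjusted p = 0.0515) or CS/SO4 replicate 3 (adjusted p = 0.053, log2 fold change -0.86). VIT_15s0046g00290 was also lower at DAF75 (log2 fold change -3.84 ± 0.25, adjusted p = 2.77e-05) and at DAF105 (log2 fold change -1.35 ± 0.22, adjusted p = 0.00748).

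In lipid metabolism 2 of 17 transcripts of fatty acid biosynthesis, 1 of 11 of oxylipin metabolism and 2 of 14 with lipase activity were lower and 0 was higher in any of them, with medians of -0.21, -0.42 and -0.51. Over all transcripts 2.16% were called lower, and these 3 terms too are listed under genes lower at DAF75. DESeq2 called 1 higher and 2 lower among the fatty acid, 1 higher and 3 lower among the lipase and 0 higher and 2 lower among the oxylipin transcripts. For edgeR at an unadjusted p under 0.05 these counts were 1 and 3, 1 and 2, and 0 and 3. VIT_06s0004g01450, which stands under both of the first terms, held 4.02, 3.29 and 7.08 TPM in CS and 1.23, 1.47 and 1.23 TPM in CS/SO4 (log2 fold change -1.90 ± 0.27, adjusted p = 0.00866) and was stable. The other fatty acid member, VIT_07s0005g01760, held 15.4, 11.4 and 5.49 TPM in CS and 4.05, 2.04 and 1.34 TPM in CS/SO4 (log2 fold change -2.17 ± 0.49, adjusted p = 0.0294), and was not called without CS replicate 1 (adjusted p = 0.105), CS replicate 2 (adjusted p = 0.0566), CS/SO4 replicate 2 (adjusted p = 0.106) or CS/SO4 replicate 3 (adjusted p = 0.0988). The lipases were VIT_00s0317g00110 with 421, 479 and 298 TPM in CS and 193, 173 and 128 TPM in CS/SO4 (log2 fold change -1.33 ± 0.24, adjusted p = 0.0158) and VIT_06s0004g06660 with 223, 189.951 and 208 TPM in CS and 102, 110.0 and 106 TPM in CS/SO4 (log2 fold change -1.01 ± 0.09, adjusted p = 0.00261). The former was not called without CS replicate 1 (adjusted p = 0.0695), CS/SO4 replicate 2 (adjusted p = 0.0592) or CS/SO4 replicate 3 (adjusted p = 0.064), and the latter was not called without CS replicate 1 (adjusted p = 0.0227, log2 fold change -0.97) or CS/SO4 replicate 1 (adjusted p = 0.00554, log2 fold change -0.97). VIT_09s0054g01360, under lanosterol synthase activity, a step of sterol and triterpene synthesis, held 2.83, 3.65 and 1.94 TPM in CS and 0.501, 0.390 and 0.485 TPM in CS/SO4 (log2 fold change -2.66 ± 0.33, adjusted p = 0.00638), was stable, and was the 1 of 4 members tested that was called.

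The stress response, membrane and transport terms are likewise listed under genes lower at DAF75, and 3.08% of all transcripts were called higher and 2.16% lower. In response to wounding and in regulation of defense response, 1 transcript rose and the same 1 fell in each, of 9 and 12 tested, with medians of -0.16 and -0.23. VIT_10s0003g03810, the member that fell, held 1141, 1647 and 753 TPM in CS and 524, 513 and 507 TPM in CS/SO4 (log2 fold change -1.22 ± 0.29, adjusted p = 0.0322), and was not called without CS replicate 1 (adjusted p = 0.0972), CS replicate 2 (adjusted p = 0.0375, log2 fold change -0.85), CS/SO4 replicate 1 (adjusted p = 0.0622), CS/SO4 replicate 2 (adjusted p = 0.0961) or CS/SO4 replicate 3 (adjusted p = 0.113). VIT_18s0122g00990, the member that rose, held 0.771, 0.719 and 1.06 TPM in CS and 2.22, 1.54 and 2.08 TPM in CS/SO4 (log2 fold change 1.16 ± 0.22, adjusted p = 0.0182), and was not called without CS replicate 1 (adjusted p = 0.0829) or CS/SO4 replicate 3 (adjusted p = 0.0762). All 6 transcripts of response to chitin had negative fold changes (median -1.07), and 1 of them, VIT_06s0004g04950, was called lower at 40.3, 58.7 and 37.0 TPM in CS and 26.9, 19.7 and 18.2 TPM in CS/SO4 (log2 fold change -1.13 ± 0.24, adjusted p = 0.025), but not without CS replicate 1 (adjusted p = 0.0752), CS replicate 2 (adjusted p = 0.0327, log2 fold change -0.84), CS/SO4 replicate 2 (adjusted p = 0.0923) or CS/SO4 replicate 3 (adjusted p = 0.0972). VIT_11s0016g01420, of the mechanically gated channels, held 2.72, 2.64 and 2.14 TPM in CS and 1.05, 0.780 and 0.641 TPM in CS/SO4 (log2 fold change -1.65 ± 0.24, adjusted p = 0.00877), was the 1 of 4 called, and was not called without CS replicate 1 (adjusted p = 0.0505). The term anchored to membrane, with its near-identical plasma membrane term, had 3 transcripts called higher and 1 lower of 20 (median 0.41). At an unadjusted p under 0.05 the counts were 3 and 3. Of these VIT_19s0015g00530 held 4.93, 8.93 and 8.81 TPM in CS and 30.8, 27.1 and 24.2 TPM in CS/SO4 (log2 fold change 1.81 ± 0.24, adjusted p = 0.00671) and VIT_18s0122g00980 1.31, 1.59 and 1.47 TPM in CS and 7.54, 7.37 and 8.62 TPM in CS/SO4 (log2 fold change 2.38 ± 0.17, adjusted p = 0.00128), both stable. Peptide transport, which includes VIT_02s0154g00260, also held the rise of VIT_18s0041g00600 from 0.0312, 0.163 and 0.0977 TPM in CS to 0.722, 0.643 and 0.349 TPM in CS/SO4 (log2 fold change 2.48 ± 0.57, adjusted p = 0.0298). That transcript lay below 1 TPM in all 6 libraries, was not called without CS replicate 1 (adjusted p = 0.0943) or CS replicate 3 (adjusted p = 0.0548), and missed the count filter when any CS/SO4 library was left out.

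edgeR called 0 of the 18 photosystem transcripts and 0 of the 9 of chlorophyll binding, against 0 higher and 1 lower photosystem transcript both in DESeq2 and at an unadjusted p under 0.05. Over all transcripts 3.08% were called higher and 2.16% lower, so lists this short can hold 0 calls without differing from the rest. Both terms are listed under genes lower at DAF75. Of the 18, 17 had negative fold changes (median -0.42). Their sum was 4727, 4022 and 4422 TPM in CS and 5009, 2428 and 2463 TPM in CS/SO4. The sum in CS/SO4 replicate 1 exceeded all 3 CS libraries, and those of replicates 2 and 3 were below all 3, so these transcripts separated the CS/SO4 libraries from each other more than the groups. The part of this difference in the results was not tested.

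Among the graft types at DAF45, CS/SO4 lay nearest to CS/101-14 and CS. The root mean square difference in scaled log2 counts between 2 libraries had a median of 0.60 within CS/SO4, 0.80 between CS/SO4 and CS/101-14, 0.88 between CS/SO4 and CS, 0.96 between CS/SO4 and CS/110R and 1.33 between CS/SO4 and CS/CS. edgeR called 3437 transcripts against CS/CS (18.8%), of which 1250 (6.85%) were higher and 2187 (12%) lower in CS/SO4. It called 1651 against CS/110R (9.29%), of which 1029 (5.79%) were higher and 622 (3.5%) lower, and 3 against CS/101-14 (0.0171%), all of them higher and 0 lower. The last count does not show that CS/SO4 and CS/101-14 were alike. At an unadjusted p under 0.05 it was 730 (311 higher and 419 lower), DESeq2 called 371, and without CS/101-14 replicate 1, which correlated with its own replicates at 0.931 and 0.955 while those correlated at 0.978, edgeR called 912 (223 higher and 689 lower). Without any other library of the pair it called 0. Against CS/110R the count fell to 1010 without CS/SO4 replicate 2 and to 1060 without CS/SO4 replicate 3.

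The 3 transcripts called against CS/101-14 were stable DEGs against CS as well. VIT_02s0025g02620 held 4.17, 3.96 and 4.19 TPM in CS and 30.7, 34.8 and 28.4 TPM in CS/SO4 (log2 fold change 2.88 ± 0.11, adjusted p = 0.000143), and CS/SO4 exceeded CS/101-14 by 2.25 ± 0.16 on the log2 scale (adjusted p = 0.0338). VIT_18s0089g00010 held 3.30, 4.21 and 5.54 TPM in CS and 14.1, 18.5 and 16.8 TPM in CS/SO4 (log2 fold change 1.88 ± 0.19, adjusted p = 0.00375), and the difference from CS/101-14 was 2.05 ± 0.15 (adjusted p = 0.0338). VIT_14s0068g00040, annotated to the plasmodesma, the channel between plant cells, held 2.33, 8.81 and 4.98 TPM in CS and 60.8, 42.9 and 53.4 TPM in CS/SO4 (log2 fold change 3.24 ± 0.40, adjusted p = 0.00617) and differed from CS/101-14 by 2.63 ± 0.18 (adjusted p = 0.0338). It was not particular to SO4, since CS/CS averaged 135 ± 28.3 TPM.

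Against the mean of the other 4 graft types, 768 transcripts were called (4.07%), 436 of them higher (2.31%) and 332 lower (1.76%). This contrast includes the CS libraries. The count was 368 without CS/SO4 replicate 2 and 378 without CS/SO4 replicate 3. In 99 of the higher and 73 of the lower ones the CS/SO4 libraries did not overlap any of the other 12 libraries, against 1.77% and 1.37% of all transcripts tested in it. That these shares are larger follows in part from how the transcripts were called. Besides the transcripts already described, VIT_11s0016g04920 held 0, 0.471 and 1.30 TPM in CS and 10.2, 12.9 and 18.4 TPM in CS/SO4 and exceeded the other types by 3.44 ± 0.59 (adjusted p = 0.00276). VIT_11s0016g03940, annotated to sequence-specific DNA binding, held 19.4, 33.0 and 6.91 TPM in CS and 3.06, 2.79 and 1.53 TPM in CS/SO4, and its difference from the other types was -2.92 ± 0.52 (adjusted p = 0.00336). Against CS it was called lower (log2 fold change -3.07 ± 0.60, adjusted p = 0.0202), but not without CS replicate 1 (adjusted p = 0.0731), CS/SO4 replicate 2 (adjusted p = 0.0756) or CS/SO4 replicate 3 (adjusted p = 0.0844). VIT_05s0020g00930 held 101, 51.2 and 89.2 TPM in CS and 29.1, 29.2 and 20.3 TPM in CS/SO4, and its difference from the other types was -2.55 ± 0.41 (adjusted p = 0.00184).

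The DEGs of DAF45 were then read at DAF75 and DAF105, in libraries that the comparison had not used. Of the 543 higher DEGs, 479 could be tested at DAF75, where 4099 transcripts in all were called (22.9%). Of the 479, 168 (35.1%) were higher and 85 (17.7%) lower in CS/SO4, while over all transcripts tested at DAF75 8.43% were higher and 14.5% lower. Of the 381 lower DEGs, 366 could be tested, and 202 (55.2%) were lower and 18 (4.92%) higher. The median log2 fold change at DAF75 was 0.56 for the higher and -1.27 for the lower DEGs, with that of all transcripts close to 0. At DAF105 the shares were smaller. Of 433 higher DEGs tested, 39 (9.01%) were higher and 42 (9.70%) lower, against 1.62% and 2.88% of all transcripts, and of 313 lower DEGs tested, 24 (7.67%) were lower and 15 (4.79%) higher. In all, 13 DEGs were higher and 20 lower at each of the 3 stages. Whether these numbers exceed what separate calls at the 3 stages would give was not tested. Without CS/SO4 replicate 1 of DAF105 the total called at that stage fell from 777 (4.5%) to 476.

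VIT_11s0016g04920 was the largest of the 13, with log2 fold changes of 4.53 ± 0.66 at DAF45 (adjusted p = 0.00898) and 1.93 ± 0.53 at DAF105 (adjusted p = 0.0474). At DAF75 it averaged 21.6 ± 9.48 TPM in CS/SO4, while no CS library held more than 3 counts. With a CS/SO4 library left out it had too few counts to be tested at DAF45. VIT_08s0058g01000, described above, was higher by a log2 fold change of 1.21 ± 0.25 at DAF75 (adjusted p = 0.00451) and 1.69 ± 0.13 at DAF105 (adjusted p = 0.000364). Among the 20, VIT_02s0033g01020 held 78.7, 87.3 and 61.2 TPM in CS and 25.5, 17.6 and 20.9 TPM in CS/SO4 at DAF45 (log2 fold change -1.88 ± 0.20, adjusted p = 0.00434), and its log2 fold change was -5.25 ± 0.18 at DAF75 (adjusted p = 6.28e-06) and -1.61 ± 0.37 at DAF105 (adjusted p = 0.0249). The call at DAF45 was stable, and all 6 counts were fractional. VIT_16s0098g01170, annotated to sequence-specific DNA binding, held 20.9579, 21.3 and 32.3 TPM in CS and 10.6, 4.19 and 2.39 TPM in CS/SO4 at DAF45 (log2 fold change -2.13 ± 0.47, adjusted p = 0.0275), and was not called without CS replicate 1 (adjusted p = 0.0845), CS/SO4 replicate 2 (adjusted p = 0.0994) or CS/SO4 replicate 3 (adjusted p = 0.0686). It was also lower at DAF75 (log2 fold change -6.27 ± 0.64, adjusted p = 0.00017).

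**Figure D5:**
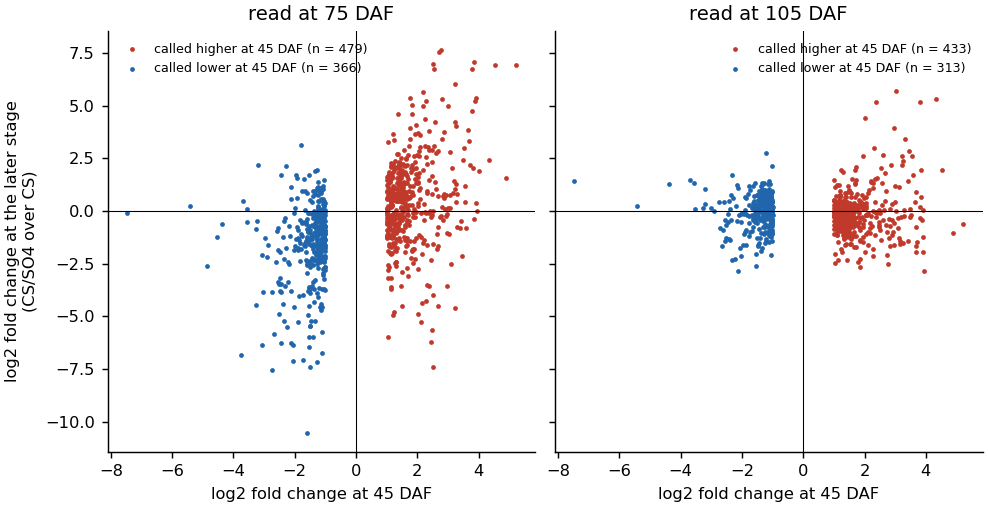
Log2 fold change of CS/SO4 over CS at DAF75 (left) and DAF105 (right) against that at DAF45, for the DEGs of DAF45 that could be tested at the later stage. Higher DEGs (red) fall on both sides of 0 at DAF75, lower DEGs (blue) lie mostly below it, and at DAF105 both sit around 0.

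The change of the graft effect between stages was tested directly. Over all transcripts the differences called were 3395 (18.3%) against DAF75 and 1605 (8.62%) against DAF105, each in a fit that contains the libraries of DAF45. VIT_14s0068g00040 turned from higher at DAF45 to lower at DAF75 (log2 fold change -4.58 ± 0.83, adjusted p = 0.00239), a difference of 7.82 ± 0.95 (adjusted p = 0.000152). VIT_18s0122g00980 did the same (log2 fold change at DAF75 -3.58 ± 0.62, adjusted p = 0.00201), with a difference of 5.95 ± 0.54 (adjusted p = 2.9e-05). The opposite turn was made by 4CLL5 (VIT_16s0050g00390), which was higher in CS/SO4 at DAF75 (log2 fold change 1.57 ± 0.28, adjusted p = 0.00209), a difference of -3.52 ± 0.47 (adjusted p = 0.000259).

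Ripening in the ungrafted vine gave a further reading that shares no library with the comparison. From DAF75 to DAF105 13.4% of all transcripts tested rose and 20.1% fell in CS. Of the 477 higher DEGs tested there, 142 (29.8%) rose and 147 (30.8%) fell, and of the 369 lower DEGs 30 (8.13%) rose and 199 (53.9%) fell, with medians of 0.11 and -1.30. More of the lower DEGs fell than rose in CS between these stages, and the higher DEGs divided about evenly.

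To set the difference beside ripening, each library was given a position on an axis of log2 counts, scaled so that CS averaged 0 at DAF75 and 1 at DAF105. The CS libraries of DAF45 stood at 0.0572, 0.0289 and 0.102 and the CS/SO4 libraries at 0.0731, 0.169 and 0.173. CS/SO4 replicate 1 lay among the CS libraries, and the other 2 lay above them. The means were 0.0627 ± 0.0369 (SD, n = 3) and 0.138 ± 0.0564, and the difference of 0.0755 did not pass the two-sided exact permutation test (p = 0.2, where 3 against 3 libraries can give no less than 0.1). At DAF75 the CS/SO4 libraries stood at 0.632 to 0.688. The CS libraries of DAF45 averaged 0.0627, above the 0 of CS at DAF75, although they were the younger. The axis thus does not order these stages, and a position at DAF45 cannot be read as progress in ripening.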

How the data were processed

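Skin RNA was sequenced in 45 libraries, of which the 6 compared held 17594637 to 20568828 counts. Per the study's methods, the authors used fastp to clean the reads, HISAT2 to align them to the grapevine reference (12X), StringTie for assembly and HTSeq for counting. The deposited table of expected counts is not normalized, and 87.6% of the counts above 0 in the 6 libraries were whole. The tool behind the fractions is not given in the sources used here, and counts were rounded for the tests. The deposited TPM values, scaled by the authors for transcript length and depth, served for levels. All 45 columns of each table were matched to labels, and 0 were left unmatched. None of the identifiers was found among 29591 reference genes, so names come from the study's primer table and terms from its GO table.

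Transcripts reaching 10 counts in 3 or more of the libraries fitted were tested with edgeR 4.0.16 (TMM normalization, quasi-likelihood F test, R 4.3.3) within the groups compared, with Benjamini-Hochberg adjustment over all of them. Fits across stages held the groups concerned. A transcript was called at an adjusted p of 0.05 or less and a log2 fold change beyond 1. The standard error is the log2 fold change divided by the square root of F. On simulated counts for the main comparison, 195 of 200 transcripts changed 4-fold were recovered with 11 false calls of 17382. The changed transcripts had a mean of at least 50 counts, and the noise was independent between transcripts. Shifts shared by a whole library were not simulated, so recovery and false calls in the real libraries may be worse. DESeq2 1.42.0, other scalings and filters, larger fits, a replicate block and leaving out each library were tried as alternatives. Named transcripts were all primer genes, the largest stable and the most abundant calls, called list members, calls shared by all stages, those apart from the other graft types, and runs. The rule for the largest stable, most abundant, all-stage and other-graft-type calls gave 44 transcripts, of which 30 are named. They, and those named among the list members and runs, were picked for length with their values known. The transcripts named for the contrast with CS/101-14 fell outside the rule and were chosen after their values were seen. The members, lists and rules were chosen with earlier results of these data known. Of 75 transcripts considered, 74 could be tested and 56 were called.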

Additional observations from a re-analysis of the deposited data

Results flagged for a closer look

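The values here are the log2 fold change of CS/SO4 over CS at DAF45 minus that at a later stage, for named transcripts in which edgeR's test of the difference itself was passed (adjusted p of 0.05 or less and more than 2-fold). A positive value means that CS/SO4 stood higher relative to CS at DAF45. Groups of 3 libraries are too small for a check of single outlying libraries, and explanations were not weighed. For VIT_09s0054g01360 and VIT_18s0041g00600 at DAF75 and VIT_12s0057g00150 at DAF105, every library of 1 of the groups held 3 counts or fewer, so these values depend on the prior count of the fit and are no bounds.

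In the run on VIT_12s0057 the members differed between stages in different ways. VIT_12s0057g00060 differed by 2.37 from DAF75. VIT_12s0057g00120 differed by 2.46 from DAF75 and by -2.78 from DAF105. VIT_12s0057g00190 differed by 5.58 from DAF75. VIT_12s0057g00070 differed by -2.37 from DAF105. VIT_12s0057g00150 differed by -2.69 from DAF105.

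The following transcripts without a name had a positive difference from DAF75 or, where 1 value is given, from the stage named. VIT_01s0146g00260 differed by 3.29 from DAF75 and by 5.93 from DAF105. VIT_09s0002g03140 differed by 3.93 from DAF75 and by 6.81 from DAF105. VIT_00s0203g00020 differed by 4.22 from DAF75. VIT_08s0058g01000 differed by 2.35 from DAF75 and by 1.88 from DAF105. VIT_04s0044g01130 differed by 3.12 from DAF75. VIT_04s0044g01110 differed by 1.96 from DAF75. VIT_01s0011g05190 differed by 2.37 from DAF75. VIT_01s0011g05170 differed by 2.89 from DAF75. VIT_08s0058g01210 differed by 2.92 from DAF75 and by 3.53 from DAF105. VIT_03s0038g01510 differed by 1.16 from DAF75. VIT_06s0004g03130 differed by 1.47 from DAF75. VIT_09s0002g03410 differed by 1.61 from DAF75. VIT_09s0054g01360 differed by 3.18 from DAF75. VIT_18s0122g00980 differed by 5.95 from DAF75. VIT_19s0015g00530 differed by 3.64 from DAF75 and by 1.92 from DAF105. VIT_18s0122g00990 differed by 2.83 from DAF75 and by 1.76 from DAF105. VIT_18s0041g00600 differed by 8.13 from DAF75. VIT_16s0098g01170 differed by 4.13 from DAF75. VIT_02s0033g01020 differed by 3.36 from DAF75. VIT_14s0068g00040 differed by 7.82 from DAF75. VIT_18s0089g00010 differed by 1.75 from DAF75 and by 2.22 from DAF105. VIT_02s0025g02620 differed by 2.27 from DAF75 and by 3.33 from DAF105. VIT_11s0016g03940 differed by 3.28 from DAF75. VIT_08s0007g06040 differed by 3.49 from DAF105. VIT_18s0001g09460 differed by 1.63 from DAF105.

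In the following the first difference given was negative. VIT_14s0060g00810 differed by -1.63 from DAF75 and by -3.01 from DAF105. VIT_14s0108g00810 differed by -1.03 from DAF75 and by 1.29 from DAF105. VIT_19s0090g01350 differed by -4.93 from DAF75 and by -2.07 from DAF105. VIT_19s0090g01340 differed by -3.70 from DAF75. VIT_05s0020g00930 differed by -1.06 from DAF75 and by -2.03 from DAF105. VIT_11s0016g01420 differed by -1.33 from DAF105. VIT_06s0004g06660 differed by -1.96 from DAF105.

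Among the genes of the primer list, given here under the names of that list, most differences were against DAF75. The ripening-related gene (VIT_06s0004g02560) differed by -4.83 from DAF75. ACBP6 (VIT_02s0033g01330) differed by -2.39 from DAF75. BHLH77 (VIT_17s0000g00430) differed by -1.53 from DAF75. EXL1 (VIT_16s0022g01430) differed by 3.78 from DAF75. UBC28 (VIT_02s0025g01050) differed by 1.33 from DAF75. PUB23 (VIT_08s0105g00190) differed by 3.63 from DAF75. XTH7 (VIT_00s0386g00050) differed by 3.55 from DAF75. WRKY40 (VIT_09s0018g00240) differed by 1.07 from DAF75. WRKY46 (VIT_15s0046g01140) differed by 2.62 from DAF75. CHI (VIT_05s0094g00350) differed by -3.32 from DAF75. 4CLL5 (VIT_16s0050g00390) differed by -3.52 from DAF75 and by -1.79 from DAF105. EXPA11 (VIT_18s0001g01130) differed by 1.66 from DAF105.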

How the results depend on the processing

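No named transcript that was called changed direction under any alternative run. Of the genes not called, 3 changed sign when 1 library was left out, with log2 fold changes of -0.75 to 1.18 for CHS (VIT_16s0100g00950, 0.64 with all libraries), -0.40 to 0.57 for CHI (VIT_05s0094g00350, 0.14) and -0.21 to 0.18 for EXL1 (VIT_16s0022g01430, -0.05). The DEG count at DAF45 was 1155 with DESeq2, 925 with RLE size factors, 982 of 23392 without a filter, 833 of 16917 at a mean of at least 1 TPM, 780 with all 15 libraries of DAF45 and 1103 with all 45 libraries. At an unadjusted p under 0.05 the lower DEGs numbered 612. Leaving out 1 library gave 269 to 1222 DEGs (188 to 636 higher and 81 to 586 lower). It gave 0 to 912 calls against CS/101-14, 1010 to 1873 against CS/110R, 2579 to 3310 against CS/CS and 368 to 952 against the other graft types. At the later stages it gave 3531 to 3891 calls at DAF75, 476 to 769 at DAF105, 2984 to 3632 and 1189 to 1907 for the change of the graft effect from DAF75 and DAF105, and 5292 to 5765 for CS from DAF75 to DAF105. DESeq2 called 371 transcripts against CS/101-14. The difference in position on the ripening axis was 0.0582 to 0.108 when 1 library was left out.

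The study's methods name a randomized block design for picking the berries, but no source used here says that a replicate number stands for a block or shared vines. Same-numbered libraries deviated from their group means with correlations of 0.0692, 0.129 and 0.159, and differently numbered ones with -0.137 to -0.00311. Each library thus correlated best with its own number. The main fit did not use the number. With the number as a block, 880 transcripts were called at DAF45 and 0 against CS/101-14, and of the named DEGs WRKY40 (VIT_09s0018g00240, log2 fold change -0.97) and VIT_18s0041g00600 (adjusted p = 0.0548) were not called.

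Of the 56 named transcripts called, 56 were called by DESeq2, 54 with the block, 54 with all 45 libraries and 47 with all 15 libraries of DAF45. The number called was 35 without CS replicate 1, 37 without CS/SO4 replicate 3 and 39 without CS/SO4 replicate 2. With all 15 libraries those not called included VIT_08s0058g01210, VIT_19s0090g01340 and VIT_10s0003g03810, and the genes WRKY40 and 4CLL5. The cause of these changes was not tested. With 3 libraries a group, small changes of low or variable transcripts were not detectable at this depth, and counting error adds to the spread of transcripts below 1 TPM.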
